A study of Mus musculus with 4 samples.

Results

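The 50 genes described here are the heterotrimeric G protein subunits and the regulators of G protein signalling (RGS) measured in Drop-seq libraries of the bed nucleus of the mouse stria terminalis (BNST), which is a region of the extended amygdala. They were taken by symbol, as every G alpha, G beta, G gamma or numbered RGS gene among the 20136 genes of the 4 libraries. The set held 14 G alpha, 5 G beta and 11 G gamma genes, 19 RGS genes and Rgs7bp, the membrane anchor of RGS7-family proteins. Drop-seq captures the 3′ end of messenger RNA from single cells in droplets and counts molecules by unique molecular identifiers (UMIs). Each library came from BNST tissue punches of 6 pooled wildtype male C57BL/6J mice, and no treatment or second genotype was compared. The series concerned prepronociceptin neurons of the extended amygdala and arousal, and the question addressed here is how the G protein genes were distributed over its neuron subtypes, glia and vascular cells. Of the 50 genes, 45 were listed in all 4 libraries. Gnat2 was listed in 1 library, Gnb3, Gng10 and Rgs13 in 2, and Gngt2 in 3.

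A heterotrimeric G protein passes the signal of a cell-surface receptor into the cell. The activated receptor makes the alpha subunit exchange GDP for GTP and part from the beta-gamma pair: Gs and Golf alpha subunits stimulate adenylyl cyclase, Gi-type subunits inhibit it, Gq and G11 activate phospholipase C beta, and G12 and G13 form a further class. RGS proteins speed the GTP hydrolysis of alpha subunits and so shorten the signal, and in the striatum Golf carries dopamine and adenosine signals to cyclic AMP.

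The libraries held 10200 barcodes and 14018026 UMIs. Barcodes were kept if 400 or more genes were detected and mitochondrial UMIs made up no more than 10%, and 58 called doublets (1.37% of 4239) were removed, which left 837 to 1281 cells and 2119143 to 4842995 UMIs a library. Cells were assigned to classes by UMIs of marker genes, none of them a G protein or RGS gene. The gates gave 2516 neurons, 924 oligodendrocytes, 145 oligodendrocyte precursor cells (OPCs), 404 astrocytes and 84 vascular cells (endothelial and mural). Median UMIs per cell were 3200.5 in neurons, 1386.5 in oligodendrocytes, 1000 in OPCs, 812.5 in astrocytes and 859 in vascular cells. Libraries shared 20 barcodes between pairs, none among kept cells. UMIs were summed per class and library, and a level below is a count scaled to CPM (counts per 1e6 UMIs of that sum), given for libraries 1 to 4 in order or as mean ± SD over the 4 libraries. These levels carry no scaling factor between sums. The log2 fold changes do carry one (edgeR's TMM), so they need not match the ratio of the levels. The summed neuron markers reached 9839 to 11077 CPM in neurons, 111 to 221 in oligodendrocytes, 294 to 938 in OPCs, 250 to 423 in astrocytes and 280 to 534 in vascular cells, where Rbfox3, Gad1 and Slc17a6 were at 0. A level in glia or vascular cells of a few percent of the neuron level therefore lay in the range of the neuron markers themselves, and the part of such RNA in it was not tested.

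The first comparison asked which G protein and RGS genes differed between the 5 classes. Of the 50, 24 passed the filter on low counts, which asked for a minimum CPM in several of the sums. Of the 24, 23 differed somewhere among the classes by edgeR's quasi-likelihood test at an adjusted p under 0.05, against 94.5% of the 3606 genes tested. The exception was Gna11, a Gq-type subunit, with class means between 49.8 ± 19.9 CPM in oligodendrocytes and 136 ± 82.7 in vascular cells. Against neurons, 22 of 24 differed in oligodendrocytes (7 higher, 15 lower), where 77.3% of all tested genes did (33.8% higher, 43.5% lower). In OPCs 15 differed (4 higher, 11 lower) against 57.9% of all genes (24.9% and 33%). In astrocytes 21 differed (7 higher, 14 lower) against 72% (30.5% and 41.5%), and in vascular cells 18 (7 higher, 11 lower) against 56.6% (22% and 34.7%). Most genes of any kind differed between these classes, so the counts alone say little about the G protein genes. The median log2 fold change against neurons was -1.51 in oligodendrocytes (-0.21 over all tested genes), -0.87 in OPCs (-0.27), -1.08 in astrocytes (-0.36) and -0.02 in vascular cells (-0.46). These 4 comparisons share the same neuron sums. Of the calls over all genes, 43.7% were higher in oligodendrocytes, and 30.9% were without scaling factors. For 16 of the 24 a single class was above each of the other 4, as for 50.1% of all tested genes: 8 in neurons (18.8% of all genes), 2 in oligodendrocytes (11.9%), 2 in astrocytes (8.54%), 4 in vascular cells (7.15%) and 0 in OPCs (3.72%). Several of the 16 passed the filter only through the class in which they were highest, among them Rgs5, Rgs12, Gna13 and Rgs20. For such genes the filter largely fixed that outcome in advance, so these counts are a description only. For 7 a single class was below each of the other 4, as for 14.8% of all tested genes: 3 in neurons (6.32%), 1 in oligodendrocytes (3.3%), 1 in astrocytes (1.19%), 2 in vascular cells (3.22%) and 0 in OPCs (0.776%).

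**Figure D1:**
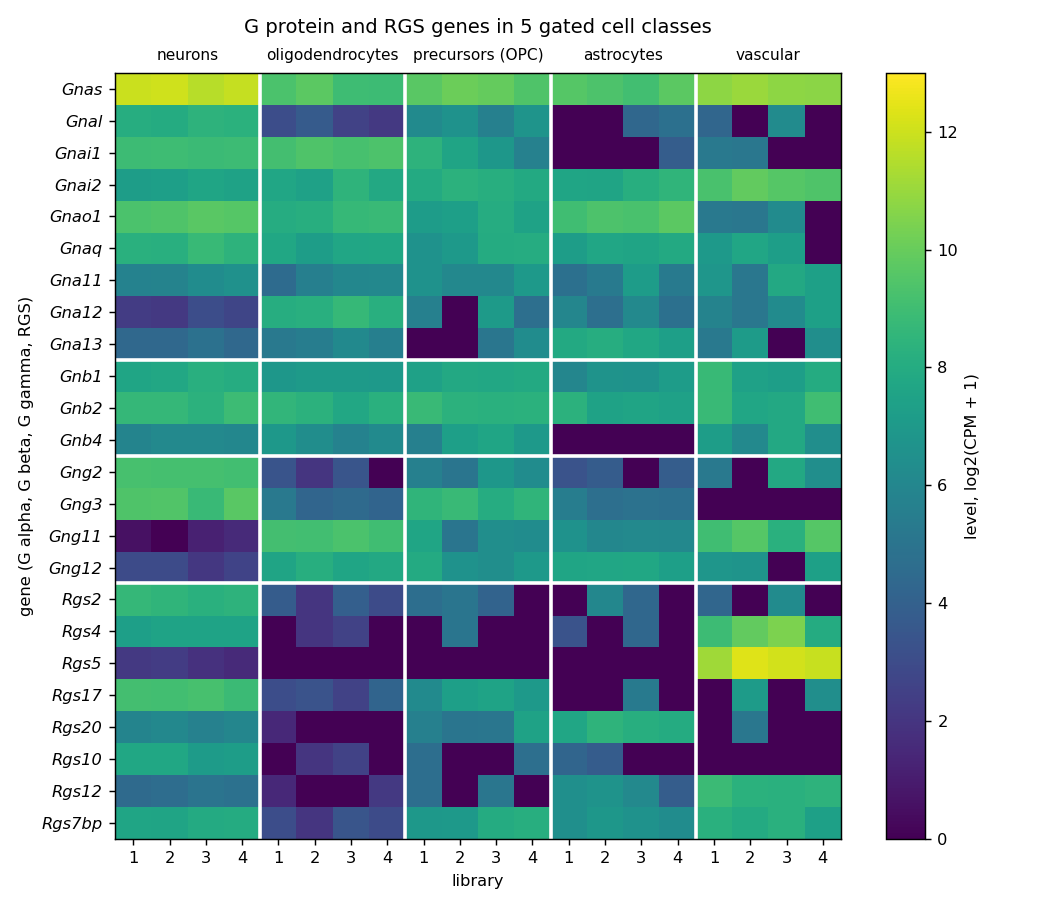
Level of the 24 tested genes (rows) in neurons, oligodendrocytes, OPCs, astrocytes and vascular cells (column blocks, 4 libraries each), coloured by log2 of CPM plus 1. Gnas was high in all blocks, Gng11, Gng12 and Gna12 had their lowest class means in neurons, and Rgs5 was strong in vascular cells. Single sums fell below neurons: Gng12 was at 0 in vascular cells of library 3 and Gna12 in OPCs of library 2.

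Among alpha subunits, neurons were marked by Gs-type RNA. Gnas (chr2:174284320-174346744, plus strand, GRCm38), which encodes Gs alpha, was at 4032, 4295, 3082 and 3659 CPM in neurons. In vascular cells it was at 1757, 2117, 1754 and 1690 CPM, and in oligodendrocytes at 638, 831, 490 and 486. Every neuron sum was above every vascular sum, and every vascular sum above every glial one. The log2 fold change against neurons was -2.30 (SE 0.14) in oligodendrocytes, -2.24 (0.17) in OPCs, -2.22 (0.16) in astrocytes and -1.17 (0.17, edgeR adjusted p = 4.63e-11) in vascular cells. Gnal, which encodes Golf alpha, was at 272, 259, 336 and 311 CPM in neurons and at 6.95 ± 3.80 in oligodendrocytes. Its log2 fold change was -5.01 (SE 0.27) there, -2.13 (0.35) in OPCs, where it was at 81.3 ± 24.4 CPM, -4.55 (0.43) in astrocytes and -3.99 (0.64) in vascular cells. Gs-type genes held 67.4% ± 4.76 of all G alpha UMIs in neurons, 58.7% ± 2.46 in vascular cells, 46.7% ± 5.93 in OPCs, 31.9% ± 4.85 in astrocytes and 24.7% ± 6.90 in oligodendrocytes. Gnas makes several transcripts that share their 3′ exons, among them those of the XL alpha-s and NESP55 proteins, so 3′ counts do not separate them. Exons of Gnas, Gnal and Gna12 overlap genes on the opposite strand, as do those of Gnao1, Gna13, Gng2, Gng3, Gng12, Gng13 and Rgs12, among others. Whether counting used strand is not given in the sources used here, so the levels of these genes are uncertain to that extent. Gnb2 exons overlap Epo on the same strand.

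The Gi/o genes divided the glia. Gnai1, a Gi alpha subunit, was at 473, 505, 459 and 473 CPM in neurons and at 553, 692, 602 and 658 in oligodendrocytes. In astrocytes it was at 0, 0, 0 and 13.2 CPM, a single UMI in 404 cells. Oligodendrocytes were above neurons in 4 of 4 libraries (log2 fold change 0.72, SE 0.12, edgeR adjusted p = 7.99e-10), and astrocytes were below (-7.16, SE 0.51, adjusted p = 2.12e-43). The SE of the astrocyte value was derived from the test's F and, on 1 UMI, understates the counting error. OPCs ranged from 51.9 to 343 CPM, all below neurons (-1.64, SE 0.27), and vascular cells held 3 UMIs. Gnai2, the Gi alpha subunit widespread in blood and vessel cells, had its highest level in vascular cells, at 617, 937, 762 and 676 CPM against 149, 159, 198 and 176 in neurons (2.09, SE 0.23, adjusted p = 2.26e-18). Its smallest log2 difference from any other class was 1.26, from oligodendrocytes. Gnao1, encoding the abundant neuronal Go alpha, was at 723 ± 81.6 CPM in neurons and at 660 ± 146 in astrocytes, where the difference missed the threshold (0.03, SE 0.15, adjusted p = 0.854). It was lowest in vascular cells, at 37.1 ± 31.2 CPM (-4.25, SE 0.46). Astrocytes thus held 237 UMIs of Gnao1 and 1 of Gnai1, and oligodendrocytes 536 and 966.

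Gna12 and Gna13, the alpha subunits of the G12/13 class, were both low in neurons and high in different glia. Gna12 (chr5:140758408-140830431, minus strand) was at 3.94, 3.47, 7.29 and 5.68 CPM in neurons and at 269, 290, 422 and 293 in oligodendrocytes (log2 fold change 6.27, SE 0.21, edgeR adjusted p = 2.22e-200). It was above neurons also in astrocytes (3.40, SE 0.53), vascular cells (3.66, SE 0.84) and OPCs (3.37, SE 0.67), though in OPCs not without library 3 (2.36, adjusted p = 0.0744) and in vascular cells not at a mitochondrial share of at most 5% (2.55, adjusted p = 0.31). Gna13 was at 20.2, 19.8, 27.9 and 19.9 CPM in neurons and at 241, 270, 212 and 158 in astrocytes (3.52, SE 0.28, adjusted p = 3.46e-34). In oligodendrocytes it was at 50.3 ± 14.2 CPM. The 2 genes together held 14.6% ± 2.48 of G alpha UMIs in oligodendrocytes, 12.1% ± 3.47 in astrocytes and 0.454% ± 0.119 in neurons. Gnaq, encoding Gq alpha, was highest in neurons at 301, 293, 425 and 343 CPM, and was lower in each other class, with a log2 fold change of -0.42 in oligodendrocytes (SE 0.12, adjusted p = 0.000645). Gnaq missed the threshold in oligodendrocytes without the library block (adjusted p = 0.0502) and in astrocytes with DESeq2 (0.0632).

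The beta subunits stay paired with gamma subunits through the cycle. For Gnb1 and Gnb2 the largest fitted log2 fold change against neurons was -1.12, that of Gnb1 in astrocytes. Gnb2 was at 405 ± 60.02 CPM in neurons and 305 ± 63.7 in oligodendrocytes, and the difference missed the threshold (-0.07, SE 0.11, edgeR adjusted p = 0.593). By CPM, which has no scaling factor, Gnb2 was lower in oligodendrocytes in 4 of 4 libraries, so its fitted change depends on the scaling. Gnb1 and Gnb2 were lower in astrocytes than in neurons (-1.12, SE 0.25, and -0.66, SE 0.18), Gnb1 not with at least 800 genes a cell (-0.89, adjusted p = 0.127). Gnb4 was the tested beta subunit with a class at 0: it was at 56.9, 69.3, 68.3 and 63.9 CPM in neurons and had no UMI in astrocytes, which puts it at least 7.72-fold lower there, taking 3 counts over the class as the limit (adjusted p = 2.88e-08). It was higher than in neurons in oligodendrocytes (0.73, SE 0.20, adjusted p = 0.000346), but not without library 1 (0.25, adjusted p = 0.363) or without scaling factors (0.25, adjusted p = 0.224). Its difference in OPCs (0.96, adjusted p = 0.02) was lost without any of libraries 2, 3 and 4: without each the adjusted p was 0.0761, 0.369 and 0.0598. It was also lost without the filter on low counts (0.479) and with at least 800 genes a cell (0.0639).

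Gamma subunits, the small lipid-anchored partners of beta, differed strongly between the classes. Gng11 (chr6:4003904-4008445, plus strand) was at 0.492, 0, 1.33 and 1.89 CPM in neurons, 8 UMIs in 2516 cells. It was at 560, 526, 643 and 517 CPM in oligodendrocytes and at 523, 764, 305 and 760 in vascular cells. The log2 fold change against neurons was 9.41 (SE 0.21) in oligodendrocytes, 9.05 (SE 0.44) in vascular cells, 6.39 (SE 0.68) in OPCs and 6.37 (SE 0.56) in astrocytes, all past the threshold. Gng12 followed the same direction: it was at 5.59 ± 1.71 CPM in neurons, 228 ± 43.1 in oligodendrocytes (5.55, SE 0.21) and 193 ± 24.1 in astrocytes (5.20, SE 0.33). Both were lower in neurons than in each of the other 4 classes, as was Gna12. In vascular cells Gng12 was at 96.3 ± 70.4 CPM on 11 UMIs, above neurons in 3 of 4 libraries with overlapping ranges. The same held for Gna12 in OPCs, also on 11 UMIs.

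The 2 neuronal gamma subunits went the other way. Gng2 was at 594, 575, 566 and 529 CPM in neurons and at 5.50 ± 4.77 in oligodendrocytes (log2 fold change -6.12, SE 0.24, edgeR adjusted p = 3.28e-143). It was at 8.74 ± 6.14 CPM in astrocytes (-5.90, SE 0.39). Gng3 was at 691, 703.5, 454 and 802 CPM in neurons and had no UMI in vascular cells, at least 24.3-fold lower (adjusted p = 4.68e-26). OPCs kept Gng3 at 368, 455, 268 and 363 CPM, below neurons by a smaller step (-1.05, SE 0.20), while oligodendrocytes had 23.6 ± 9.24 (-4.34, SE 0.18). As a share of all G gamma UMIs, Gng3 and Gng2 held 46.1% ± 5.87 and 40.2% ± 5.43 in neurons. Gng11 held 58.1% ± 4.34 in oligodendrocytes and 66.2% ± 16.6 in vascular cells, Gng12 held 52.3% ± 8.52 in astrocytes, and Gng3 held 50.9% ± 9.96 in OPCs. Gng2 held 0.561% ± 0.486 in oligodendrocytes.

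**Figure D2:**
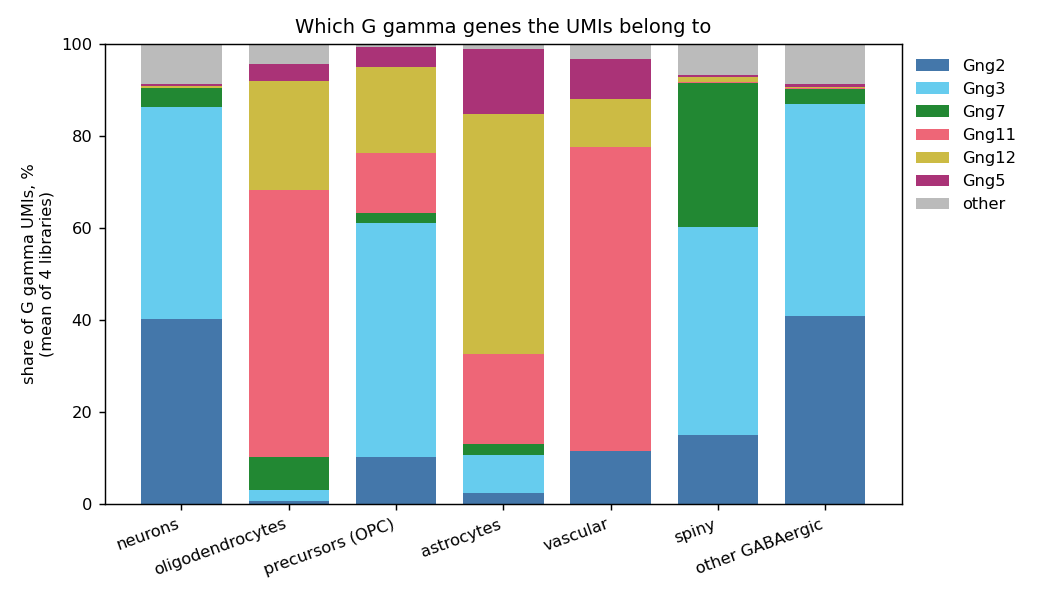
Mean share (percent, 4 libraries) of all G gamma UMIs taken by each G gamma gene, as stacked bars for the 5 classes and for spiny-like and other GABAergic neurons. Gng11 takes 58.1% in oligodendrocytes, Gng12 takes 52.3% in astrocytes, and Gng7 takes 31.4% in spiny-like neurons.

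The summed level of the RGS genes was lowest in oligodendrocytes and highest in vascular cells. The 19 genes summed to 1556 ± 62.5 CPM in neurons, 51.5 ± 12.97 in oligodendrocytes, 387 ± 83.3 in OPCs, 493 ± 93.1 in astrocytes and 5300 ± 1605 in vascular cells. The vascular sum was mostly Rgs5, which held 74.7% ± 7.21 of it, with Rgs4 at 13.8% ± 6.54 and Rgs12 at 7.65% ± 4.39. Rgs17, an RGS protein of the RZ group acting on Gi and Gz, was at 545, 530, 602 and 467 CPM in neurons and 9.64 ± 5.35 in oligodendrocytes (log2 fold change -5.55, SE 0.23, edgeR adjusted p = 3.76e-132). Rgs2, which acts on Gq, was at 402, 361, 308 and 335 CPM in neurons and 9.37 ± 5.37 in oligodendrocytes (-4.77, SE 0.24). Rgs10, a small RGS protein acting on Gi, was at 213, 215, 139 and 150 CPM in neurons and had 3 UMIs in oligodendrocytes (-6.12, SE 0.39). It had 2 UMIs in OPCs, 3 in astrocytes and 0 in vascular cells, where it was at least 6.73-fold lower than in neurons (adjusted p = 1.27e-08). All 3 genes were higher in neurons than in each other class. In the 10 cells gated as microglia, too few for a test, Rgs10 had 11 UMIs, or 1016 CPM over the pooled cells (95% exact Poisson interval 507 to 1819, counting error only).

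Astrocytes were set apart by Rgs20, the RZ-group protein that prefers Gz. It was at 205, 347, 280 and 251 CPM in astrocytes against 57.3, 65.3, 51.1 and 61.5 in neurons, with no overlap (log2 fold change 2.38, SE 0.24, edgeR adjusted p = 3.41e-23). It held 54.9% ± 5.74 of the RGS UMIs of astrocytes and 3.78% ± 0.406 of those of neurons. Oligodendrocytes had 1 UMI of it. Vascular cells also had 1 UMI, and that difference from neurons (-2.69, adjusted p = 0.0261) was not past the threshold without library 1 (-1.94, adjusted p = 0.193) or at a mitochondrial share of at most 5% (-1.47, adjusted p = 0.382). Rgs20 exons overlap Atp6v1h on the other strand, so reads of the 2 genes may not be separable. Rgs7bp was at 223 ± 30.6 CPM in neurons, at 197 ± 83.1 in OPCs and at 254 ± 63.2 in vascular cells, and both of these differences missed the threshold (adjusted p = 0.334 and 0.501). It fell to 6.76 ± 2.78 CPM in oligodendrocytes (-4.61, SE 0.28), which were below each other class.

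Vascular cells carried Rgs5 and Rgs4, 2 small RGS proteins of the R4 group that act on Gi and Gq and whose genes neighbour each other on chromosome 1. Rgs5 (chr1:169655501-169695813, plus strand), widely used as a pericyte marker and not part of the gate, was at 2299, 5276, 4422 and 3886 CPM in vascular cells. It was at 3.45, 3.96, 2.65 and 1.89 CPM in neurons and had no UMI in oligodendrocytes, OPCs or astrocytes. The log2 fold change against neurons was 9.97 (SE 0.24, past the threshold). Against the 3 glial classes Rgs5 was at least 1851-fold, 199.99-fold and 435-fold higher, in that order. The neurons' own 30 UMIs were above the 0 of oligodendrocytes (at least 1.62-fold, adjusted p = 0.0169), though not without library 1 (adjusted p = 0.0691) or at a mitochondrial share of at most 5% (0.067). Rgs4 (chr1:169741477-169747642, minus strand) was at 486, 937, 1372 and 253 CPM in vascular cells and at 161, 187, 185 and 187 in neurons (1.91, SE 0.24, edgeR adjusted p = 1.77e-14). It had 3 UMIs in oligodendrocytes, 1 in OPCs and 3 in astrocytes. Rgs4 was thus present in neurons and vascular cells alike, and Rgs5 in vascular cells with a trace in neurons. The 250 bases upstream of the RefSeq start sites of these neighbours are shown because the genes share the vascular class but differ in neurons (RefSeq, GRCm38.p6, each 5′ to 3′ on the gene's strand). The Rgs5 window is chr1:169655251-169655500, plus strand, and the Rgs4 window is chr1:169747643-169747892, minus strand. The motifs searched on both strands were TATAAA (the TATA box, in 12.4% of 32851 mouse promoters), GGGCGG (the GC box, 32.7%), TGACGTCA (the cyclic AMP response element, 1.55%), CACGTG (the E box, 6.02%) and CCGGAAG (the ETS core, 6.91%). Capitals mark matches: Rgs4 has a TATA box at position -31 and Rgs5 has none of the 5. Both windows have 53.6% G and C, near the promoters' median of 52.4%.
Rgs5: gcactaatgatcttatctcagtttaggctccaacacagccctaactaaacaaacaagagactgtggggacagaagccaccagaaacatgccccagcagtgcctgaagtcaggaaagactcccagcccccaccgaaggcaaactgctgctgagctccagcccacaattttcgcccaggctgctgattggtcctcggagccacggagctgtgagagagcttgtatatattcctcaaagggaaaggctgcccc
Rgs4: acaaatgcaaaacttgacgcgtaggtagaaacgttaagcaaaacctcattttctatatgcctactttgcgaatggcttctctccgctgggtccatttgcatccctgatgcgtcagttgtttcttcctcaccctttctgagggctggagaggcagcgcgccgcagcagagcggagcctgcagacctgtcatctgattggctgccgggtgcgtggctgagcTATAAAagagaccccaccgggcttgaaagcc

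Endothelial cells (53) and mural cells (27), gated by separate marker lists, held different RGS genes, described without a test because several of their sums held under 10 cells. Rgs5 was at 5255, 5705, 7063 and 5189 CPM in mural cells and at 1281, 4208, 1598 and 3466 in endothelial cells. Rgs4 had 56 UMIs in mural cells, at 1898, 2930, 1962 and 346 CPM, and 9 in endothelial cells, at 0, 409, 0 and 224. The summed mural markers were at 427 to 3018 CPM in endothelial cells (17265 to 23867 in mural cells), and endothelial markers at 0 to 346 CPM in mural cells; the part of mural RNA in the endothelial levels was not tested. For Rgs4 the lowest mural value lay under the highest endothelial one. Rgs12, a large RGS protein with several further domains, was high in the vascular class at 467, 312, 305 and 338 CPM against 25.9 ± 4.36 in neurons (log2 fold change 3.80, SE 0.39, edgeR adjusted p = 2.04e-21). Of its UMIs, 36 fell in endothelial cells and 1 in mural cells. Rgs7bp went the other way, with 25 UMIs in mural and 4 in endothelial cells, at 769 ± 299 and 55.1 ± 45.8 CPM. Gnai2 was at 816 ± 190 CPM in endothelial cells and 378 ± 297 in mural cells, and Gng11 was at 509 ± 123 and 664 ± 566. In barcodes with under 200 genes, which were not kept, Rgs5 was at 113 ± 58.2 CPM.

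**Figure D3:**
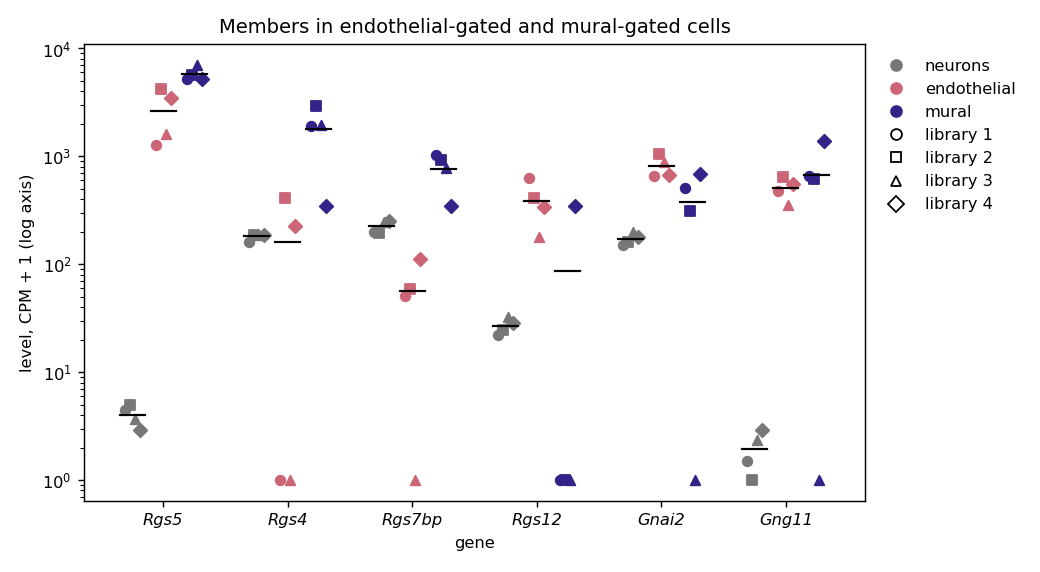
Levels (CPM plus 1, log axis) of Rgs5, Rgs4, Rgs7bp, Rgs12, Gnai2 and Gng11 in neurons, endothelial and mural cells, with a point for each library and a bar at the mean. Rgs12 lies high in endothelial cells, Rgs4 and Rgs7bp lie high in mural cells, and Gng11 lies at the floor in neurons.

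The other 26 genes did not pass the filter over the 5 classes, and their levels are given with no call. That filter asked for a minimum CPM, set by the median size of the sums, in several sums. It therefore also left out genes with many UMIs at a moderate level: Gnaz had 1210 UMIs over all barcodes, and Rgs12, which was tested, had 398. Those seen mainly in neurons included Gnaz at 113 ± 18.9 CPM, Gng4 at 76.3 ± 20.0, Rgs9 at 69.9 ± 17.3, Gng13 at 47.6 ± 21.4, Rgs8 at 40.7 ± 5.96 and Rgs14 at 22.7 ± 6.66. Gng4, Gng13, Rgs8 and Rgs14 each had at most 3 UMIs in any other class. Rgs9 was also in OPCs, at 98.0, 97.6, 50.3 and 51.8 CPM, and there only 12 UMIs were counted. Gng8 was the reverse: it was at 31.5, 27.2, 48.5 and 44.8 CPM in oligodendrocytes and at 0.843 ± 1.22 in neurons. Gng5 had 55.9 ± 41.9 CPM in astrocytes, 37.3 ± 10.4 in oligodendrocytes and 7.58 ± 4.26 in neurons. Gng7 was at 56.7 ± 17.7 CPM in neurons and 68.7 ± 8.65 in oligodendrocytes, with 3 UMIs each in OPCs and astrocytes and 0 in vascular cells. The rarest of the 26 were Gnat2 with 1 UMI over all barcodes, Rgs13 with 2, Gnb3 with 3 and Gng10 with 6.

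Within neurons the clearest contrast was that of spiny-like cells, GABAergic neurons with at least 3 UMIs from at least 2 genes of a marker list of striatal spiny projection neurons, which includes Ppp1r1b, Adora2a and Crym. The gate took 108 cells (18 to 39 a library) of 2178 GABAergic neurons, and 30 of the 50 genes could be tested. Of these, 13 differed from the other GABAergic neurons (8 higher, 5 lower) by edgeR's quasi-likelihood test with the library as a block, against 12.7% of the 8643 genes tested (5.75% higher, 6.91% lower), and the median log2 fold change was 0.25 against -0.07 over all genes. Of the 13, 9 stayed past the threshold in all the alternatives run. The higher genes included the parts of the striatal Golf heterotrimer: Gnal, the gamma subunit Gng7 and the beta subunit Gnb2. Microglia markers were at 0 in the spiny-like cells, as in Cck and Tac2 cells, and their neuron markers summed to 9007 to 10139 CPM. Other lists were not at 0 in the spiny-like cells. Astrocyte markers summed to 61.8 to 141 CPM, OPC markers to 140 to 249, endothelial markers to 15.7 to 117 and oligodendrocyte markers to 0 to 47.2. The mural, fibroblast and ependymal lists reached at most 15.7 CPM.

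Gng7 (chr10:80948624-81014945, minus strand), the gamma partner of Golf in striatum, was at 298, 235, 409 and 259 CPM in spiny-like cells. It was at 38.2, 34.9, 67.9 and 47.8 CPM in the other GABAergic neurons, and the ranges did not overlap (log2 fold change 2.68, SE 0.22, edgeR adjusted p = 1.33e-32). Gnal was at 769, 807, 1053 and 939 CPM against 259, 239, 308 and 291 (1.64, SE 0.12, adjusted p = 1.32e-40). Gnas, its Gs counterpart, was lower, at 2954, 3095, 1289 and 2075 CPM against 4042, 4349, 3123 and 3745 (-0.75, adjusted p = 5.12e-14). Gnal thus rose and Gnas fell: of G alpha UMIs, Gnal held 17.02% ± 3.98 in spiny-like cells and 4.57% ± 0.756 in the others, and Gnas held 43.4% ± 12.4 and 63.0% ± 5.49. Gng2 was at 135, 367, 15.7 and 136 CPM against 611, 590, 596 and 548 (-1.95, SE 0.17, adjusted p = 1.36e-27). The share of Gng7 among G gamma UMIs was 31.4%, 19.5%, 50.0% and 24.7% in spiny-like cells and 3.36% ± 1.48 in the others, and that of Gng2 was 14.9% ± 11.8 and 40.9% ± 5.66. Library 3 had the highest Gng7, Gnal and Rgs9 and the lowest Gnas and Gng2 of the spiny-like sums. Gng4 was lower, at 39.3, 29.3, 31.4 and 24.7 CPM against 73.4, 79.6, 58.3 and 106 (-1.28, SE 0.38, adjusted p = 0.0101), but not past the threshold with DESeq2 (adjusted p = 0.116) or without library 4 (-1.04, adjusted p = 0.134). Gnb2 was at 553 CPM against 401 (0.43, adjusted p = 0.00904) with overlapping ranges, and missed it with DESeq2 (0.0804) and without library 1 (0.209) or 4 (0.0631). Gnb2 missed it too without the block and without the filter on low counts.

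Of the RGS genes, Rgs9, whose long splice form is the striatal regulator of dopamine and opioid signals, was at 135, 117, 346 and 247 CPM in spiny-like cells. The other GABAergic neurons had 51.6, 57.8, 80.5 and 71.1 CPM (log2 fold change 1.59, SE 0.23, edgeR adjusted p = 7.63e-10). Rgs7bp, its anchor, was at 331, 337, 629 and 420 CPM against 215 ± 28.6 (0.90, adjusted p = 1.4e-07). Rgs14, an RGS protein that also binds Gi-GDP, was at 56.2, 73.3, 62.9 and 111 CPM, 28 UMIs in all, against 20.4, 25.6, 12.6 and 27.6 (1.71, SE 0.40, adjusted p = 3.25e-04). Rgs20 was at 112, 132, 141 and 136 CPM against 57.4, 62.7, 49.5 and 58.4 (1.11, SE 0.27, adjusted p = 9.7e-04). Rgs2 was at 741, 719, 487 and 716 CPM against 339 ± 43.0 (0.93, adjusted p = 5.64e-12). For all 5 of these genes each spiny-like sum was above each other sum. Gng3 (-0.63, adjusted p = 3.07e-05) and Rgs17 (-0.37, adjusted p = 0.0419) were lower. Gng3 missed the threshold without the block (0.104), and Rgs17 missed it with DESeq2 (0.336) and without library 1 (0.176), 3 (0.372) or 4 (0.0555). Rgs17 missed it too with DESeq2's size factors alone, without scaling factors, without the block and at a mitochondrial share of at most 5%.

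The upstream windows of 3 of the genes raised in spiny-like cells are shown as examples (RefSeq, GRCm38.p6, minus strand of the chromosome, printed 5′ to 3′ on the gene's strand, 250 bases before the start site). They are Gng7 at chr10:81014926-81015175, Rgs9 at chr11:109298182-109298431 and Rgs2 at chr1:144004150-144004399. Capitals mark the GC box, GGGCGG or CCGCCC on the other strand, and the TATA box. Gng7 has 5 GC boxes and 62.8% G and C in the window shown. A second RefSeq start site of Gng7 has its window at chr10:81001366-81001615, with no match and 57.2% G and C. Rgs2 has 4 and 72.4%, and Rgs9 has 1, a TATA box at position -195 and 59.6%. None of these windows has a cyclic AMP response element, an E box or an ETS core as spelled above, and a match is only a match of letters.
Gng7: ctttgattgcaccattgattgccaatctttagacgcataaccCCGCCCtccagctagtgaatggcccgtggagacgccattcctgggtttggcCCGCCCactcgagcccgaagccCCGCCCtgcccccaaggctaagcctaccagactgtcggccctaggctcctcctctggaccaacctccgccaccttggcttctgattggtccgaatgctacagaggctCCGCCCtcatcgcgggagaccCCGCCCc
Rgs9: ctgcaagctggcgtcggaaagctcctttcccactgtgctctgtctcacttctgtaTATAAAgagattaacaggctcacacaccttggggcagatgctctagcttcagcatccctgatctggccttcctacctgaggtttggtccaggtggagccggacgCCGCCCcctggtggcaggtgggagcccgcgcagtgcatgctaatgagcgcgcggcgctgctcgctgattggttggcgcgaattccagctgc
Rgs2: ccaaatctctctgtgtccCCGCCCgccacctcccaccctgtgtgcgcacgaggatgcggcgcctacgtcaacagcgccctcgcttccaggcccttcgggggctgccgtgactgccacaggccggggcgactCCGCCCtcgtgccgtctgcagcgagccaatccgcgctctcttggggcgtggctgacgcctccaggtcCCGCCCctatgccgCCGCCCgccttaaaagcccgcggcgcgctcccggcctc

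**Figure D4:**
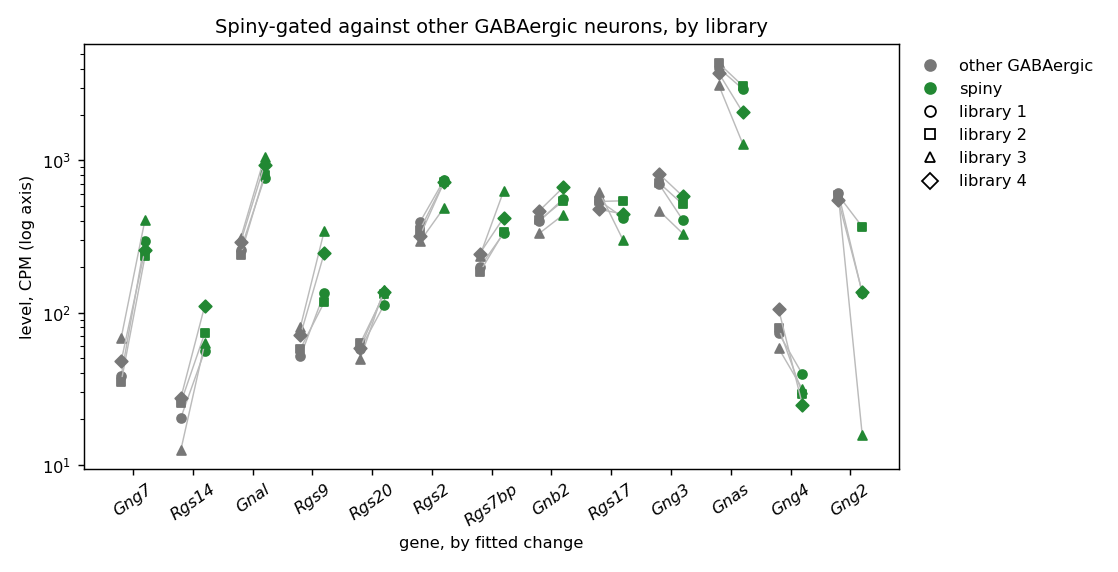
Levels (CPM, log axis) of the 13 genes past the threshold in spiny-like against other GABAergic neurons, with the 2 sums of each library joined by a line. The lines of Gng7, Gnal, Rgs9 and Rgs2 all rise and those of Gng2 and Gnas all fall; Gnb2 and Rgs17 show the smallest steps.

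Across 9 GABAergic subtypes, 21 of the 50 genes could be tested, and 15 differed somewhere, against 28.4% of 3458 genes. The 6 that did not pass were Gna11, Gnai2, Gnao1, Gnaq, Gnaz and Gnb1. Gnas was the gene with calls in most subtypes and in both directions. It was higher than in the other GABAergic neurons in Tac2 cells (5653 ± 375 CPM against 3880 ± 291 in libraries 1, 2 and 4, log2 fold change 0.55), in Slc17a8 cells (5219 ± 686 against 3694 ± 566, 0.46) and in Crh and Wif1 cells (5284 ± 324 against 3666 ± 584, 0.54). It was lower in Cck cells (2217 ± 161 against 3878 ± 524, -0.76), in Tshz1 and Foxp2 cells (2672 ± 199 against 3787 ± 555, -0.58) and in the spiny-like cells above. The edgeR adjusted p ran from 3.72e-09 to 2.62e-05 in the 3 higher subtypes, and was 6.46e-13 in Cck and 2.05e-06 in Tshz1 and Foxp2 cells. These calls held with DESeq2. Without the library block the calls in Cck and spiny-like cells held (adjusted p = 0.00713 and 0.0399), and the other 4 did not (adjusted p = 0.17, 0.376, 0.271 and 0.295 in Tac2, Slc17a8, Crh and Wif1, and Tshz1 and Foxp2 cells). Without library 1 the Tac2 value, then from 2 libraries, had an adjusted p of 0.0577, and without library 3 the Slc17a8 value had 0.108.

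Cck cells (119) showed 6 of 31 tested genes past the threshold (1 higher, 5 lower), against 5.47% of all genes (2.95% and 2.52%). Rgs4 was at 84.3, 105, 77.0 and 33.5 CPM in them and at 173, 193, 203 and 194 in the other GABAergic neurons (log2 fold change -1.24, SE 0.19, edgeR adjusted p = 2.48e-06), with no overlap. Rgs2 (-0.96, adjusted p = 1.58e-07) was lower, and with Gnas these 3 held in all the alternatives run. Gnai1 was higher, at 692 ± 46.6 CPM against 466 ± 29.7 (0.59, adjusted p = 6.98e-06, and 0.066 without the block). Gnal was lower (-0.65, and adjusted p = 0.123 without the block). Rgs10 (-0.56, adjusted p = 0.032) missed the threshold when any of libraries 1 to 4 was left out (adjusted p = 0.0519, 0.132, 0.0961 and 0.0814). It was lost too with DESeq2, without the block, at 20 cells a sum and at a mitochondrial share of at most 5%.

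Tac2 cells (89, tested in libraries 1, 2 and 4) had 6 of 33 genes past the threshold (3 higher, 3 lower), against 2.57% of all genes (1.19% and 1.39%). Gng13, a gamma subunit known from taste and olfactory cells, was at 157, 50.5 and 120 CPM in them and at 70.5, 39.2 and 37.0 in the others (log2 fold change 1.14, SE 0.25, edgeR adjusted p = 6.02e-04), higher in each of the 3 libraries but with overlapping ranges. It missed the threshold with DESeq2 (0.18), at a mitochondrial share of at most 5% (0.134) and without library 1 (0.661). None of the 6 passed without library 1 or without the block, and 1 passed with DESeq2. Slc17a8 cells (67) had 5 of 30 (2 higher, 3 lower), against 3.09% (1.01% and 2.09%). Rgs9 was at 17.1, 12.5, 0 and 55.4 CPM in them, 6 UMIs in all, against 56.3, 62.0, 97.1 and 79.3 (-1.82, SE 0.51, adjusted p = 0.0201). It missed the threshold with DESeq2 (0.358) and without library 1 (0.103), 2 (0.126) or 3 (-1.30, adjusted p = 0.303). Rgs9 missed it too without the block and at a mitochondrial share of at most 5%.

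Tshz1 and Foxp2 cells (91) had 2 of 31 genes past the threshold, both lower, against 0.771% of all genes (0.322% higher, 0.449% lower). Besides Gnas this was Rgs4, at 58.8, 124.5, 88.8 and 68.1 CPM against 170, 190, 186 and 190 (log2 fold change -1.30, SE 0.28, edgeR adjusted p = 0.00107). The ranges did not overlap, but the call was lost with DESeq2 (0.229) and without library 1 (0.136) or 4 (0.0989). It was lost too without the block and at a mitochondrial share of at most 5%. Crh and Wif1 cells (90) had 2 of 31, both higher, against 1.97% (0.691% higher, 1.27% lower): Gnas, and Rgs10 at 223, 472, 171 and 351 CPM against a mean of 171 (0.78, adjusted p = 0.00285), lost without library 2 (0.249) or 4 (0.284). The Rgs10 call was also lost with DESeq2 and without the block. Sst and Npy cells (95) had 1 of 31, against 2.9% (1.52% higher, 1.37% lower): Rgs2 was lower (-0.62, adjusted p = 0.0163), lost without library 1 (0.289), 3 (0.051) or 4 (0.0719). The Rgs2 call was also lost with DESeq2 and without the block. Zic cells (74) had 1 of 31, against 1.02% (0.305% higher, 0.715% lower): Rgs17 was lower (-0.59, adjusted p = 0.032), lost without library 1 (0.55) or 3 (0.449). The Rgs17 call was also lost with DESeq2, with DESeq2's size factors alone, without scaling factors, without the block and at a mitochondrial share of at most 5%. Six3 cells (103) had 0 of 30 by edgeR, against 0.75% (0.234% higher, 0.515% lower), with 4 at an unadjusted p under 0.05 and 0 by DESeq2.  Prkcd cells (28) were too few for the test, and there, chosen after their values were seen, Rgs4 was at 378, 789, 545 and 520 CPM and Gnas at 1014, 1527, 1198 and 1159.

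**Figure D5:**
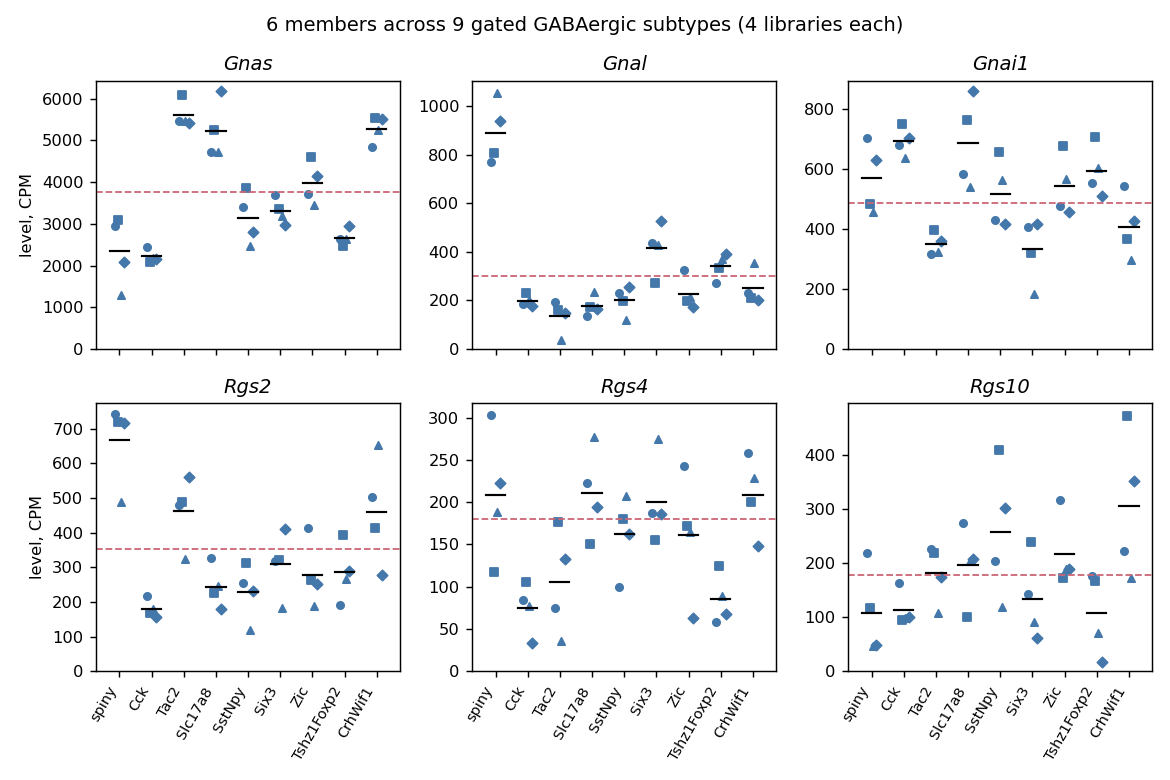
Levels (CPM) of Gnas, Gnal, Gnai1, Rgs2, Rgs4 and Rgs10 in 9 GABAergic subtypes, with a point for each library, a bar at the mean and a dashed line at the mean of all GABAergic neurons. The Gnas bar lies above the line in Tac2, Slc17a8 and Crh and Wif1 cells and below it in Cck, Tshz1 and Foxp2 and spiny-like cells. The Gnal bar lies far above it in spiny-like cells. Library 3 of the Tac2 cells is plotted but, with 6 cells, was not tested.

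GABAergic neurons were compared with glutamatergic ones (84 cells in all) in libraries 1, 2 and 4, where 3 of 33 genes passed, all higher in GABAergic neurons, against 2.4% of all genes (1.5% higher, 0.906% lower). Gng7 was at 51.0, 42.1 and 56.5 CPM in GABAergic and 17.96, 13.1 and 0 in glutamatergic neurons (log2 fold change 1.75, SE 0.51, edgeR adjusted p = 0.0328). Gnb4 was at 60.9, 70.4 and 63.6 CPM against 20.95, 13.1 and 22.9 (1.71, SE 0.46, adjusted p = 0.0131), on 9 glutamatergic UMIs. In library 3, whose 7 glutamatergic cells were too few to enter the test, these cells had Gng7 at 72.1 and Gnb4 at 48.1 CPM, above the tested glutamatergic sums. Gnal was at 284, 260 and 318 CPM against 150, 249.4 and 137 (0.78, SE 0.21, adjusted p = 0.0146). In all 3 genes the ranges did not overlap. None of the 3 passed with DESeq2, at a mitochondrial share of at most 5% or without library 1, and 1 passed without library 2 and without library 4.

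A list of 44 partners of G proteins (adenylyl cyclases, phospholipases C beta, receptor kinases, arrestins, channels and others) had 40 genes in the libraries, of which 5 could be tested over the 5 classes. Against neurons 4 differed in oligodendrocytes (0 higher), 4 in OPCs (1 higher), 4 in astrocytes (2 higher) and 2 in vascular cells (1 higher), where 77.3%, 57.9%, 72% and 56.6% of all tested genes did. Adrbk2, which encodes the receptor kinase GRK3, was at 348, 295, 396 and 238 CPM in astrocytes against 41.2 ± 9.89 in neurons (log2 fold change 3.16). Plcb1 and Plcb4, the phospholipases C beta that Gq activates, were lowest in oligodendrocytes (-3.82 and -4.26). In spiny-like cells 7 of 27 tested partners differed (5 higher, 2 lower), against 12.7% of all genes (5.75% higher, 6.91% lower). Plcb4 was at 50.5, 132, 0 and 24.7 CPM against 264 ± 45.8 (-2.45). Adcy5, the main adenylyl cyclase of striatum and named after its values were seen, was at 157, 73.3, 346 and 259 CPM against 53.7 ± 15.1 (1.90). Adcy2, another adenylyl cyclase, was at 8.28 CPM in Cck cells against 50.8 (-2.32), and Rasd2, a Ras-like protein of striatum, was at 7.92 in Slc17a8 cells against 42.3 (-2.59). Each of these named partners was past edgeR's threshold.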

How the data were processed

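The deposited tables hold raw UMI counts per gene and barcode for 4 Drop-seq libraries, unscaled by the authors. STAR 2.4.2a, Picard 2.2.4 and bcl2fastq 2.18.0.12 are named in the submitters' processing notes, and the annotation, the strand setting and the rule for calling barcodes are not given in the sources used here. UMIs were summed per gated class and library (at least 10 cells a sum, at least 3 libraries a comparison) with Python 3.11.15, pandas 2.3.3 and scanpy 1.11.5, whose Scrublet called doublets at an expected rate of 0.05. A class needed at least 3 UMIs of at least 2 of its markers and at least 2 times the UMIs of any other list. A cell meeting several subtype lists entered no subtype. The 386 such cells stayed among the other GABAergic neurons with which each subtype was compared. The list for spiny-like cells holds a further marker that is not reported here.

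edgeR 4.0.16 in R 4.3.3 (quasi-likelihood test, TMM scaling, filterByExpr, Benjamini-Hochberg adjustment over all genes tested, threshold 0.05) was fitted to all genes, with DESeq2 1.42.0 as an alternative. Both sums of a comparison came from the same library, hence from the same pool of mice, so the library was a block. The 4 libraries are pools of 1 group. With the block, the p-values measure how far the differences between classes varied from library to library. In simulated counts with 200 genes changed 2-fold, 100% were recovered for oligodendrocytes against neurons (2672 genes), 53% for vascular cells against neurons (2655 genes), 69.5% for spiny-like (8640 genes) and 58% for Zic cells (8448 genes) against other GABAergic neurons, and 50.5% for glutamatergic against GABAergic neurons (9535 genes). The changed genes were drawn from those at or above the median abundance of the genes tested. All classes were simulated from a shared profile with a shared dispersion. Recovery of genes with fewer UMIs, or between classes that differ as widely as these, was therefore not measured. Exact Poisson intervals at 95% and the limit of 3 counts cover counting error only. Each SE is the absolute log2 fold change divided by the square root of the F of its quasi-likelihood test. Where a class held few UMIs it understates the counting error, as for Gng11 in neurons (8 UMIs) and Rgs10 in oligodendrocytes (3 UMIs).

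Values in every library are given for genes highest in a single class, for the 10 largest changes against neurons, for subtype genes past the threshold with a log2 fold change of at least 1, and for GABAergic against glutamatergic genes past it. Partners are named from a log2 fold change of 2. The genes, gates and lists were chosen with earlier results of these data known. Gene positions are from GENCODE vM21 and upstream sequences from RefSeq, which held 38 of the 50 genes outside chromosome 18.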

Additional observations from a re-analysis of the deposited data

Results flagged for a closer look

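Among 119 sets of 4 library values, 7 held a highest or lowest library whose gap to the nearest other, divided by the range of the 4, was above Dixon's 95% critical value for 4 samples (chance gives about 1 in 20, here 5.95). In oligodendrocytes Gna12 was at 422.375 CPM in library 3 and at 269 to 293 in the others, and the share of Gna12 and Gna13 among G alpha UMIs was 18.2554% there against 12.97% to 13.6%. Gna13 in neurons was at 27.8513 CPM in library 3 and at 19.8 to 20.2 in the others. Gnas in vascular cells was at 2117.32 CPM in library 2 and at 1690 to 1757 in the others. Gng11 in astrocytes was at 98.1591 CPM in library 1 and at 64.2 to 67.6 in the others. Rgs20 in OPCs was at 181.469 CPM in library 4 and at 32.5 to 49.0 in the others. Rgs4 in neurons was low in library 1, at 160.959 CPM against 185 to 187.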

How the results depend on the processing

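No call changed direction. Of the 76 calls on the G protein and RGS genes against neurons, 66 were past the threshold in all the alternatives run, and of the 13 in spiny-like cells 9 were. Without the filter on low counts, which lets more genes in, 39 genes differed across the 5 classes, 38 in oligodendrocytes, 23 in OPCs and 28 in vascular cells. The 36 calls over the 9 subtypes became 19 with DESeq2 and 13 with no replicate block, and ran from 25 to 33 when each library was left out in turn. The block changed the call of GABAergic against glutamatergic neurons too: 1 gene passed without it, 0 passed with DESeq2 and 0 at a mitochondrial share of at most 5%, and 0 to 3 did with a library left out. Leaving out libraries gave 23 to 24 genes across the 5 classes, 21 to 23 in oligodendrocytes, 13 to 15 in OPCs, 21 to 22 in astrocytes, 17 to 19 in vascular cells, 16 to 17 higher in a single class, 12 to 15 across subtypes and 10 to 13 in spiny-like cells. With at least 800 genes a cell, the Gi/o/z share of astrocytes was 40.2% instead of 44.4%, the median log2 fold change of all genes in astrocytes was -0.94 instead of -0.36 with 27.0% instead of 42.3% of calls higher, and vascular cells gave no value. At 20 cells a sum, vascular cells, glutamatergic neurons and some subtypes gave none. Without scaling factors, an alternative chosen after seeing the data, the median of all genes moved to -0.68 in oligodendrocytes (from -0.21), -0.60 in astrocytes (from -0.36) and -0.04 in OPCs (from -0.27), and higher calls went from 29.9% to 42.0% in Zic and from 41.8% to 54.9% in Tshz1 and Foxp2 cells (41.3% in Zic with DESeq2's size factors). The cause of these shifts was not tested. Depth limits the calls that rest on few UMIs in a class, such as Rgs20 with 1 UMI in the 84 vascular cells.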
